A study of Rattus norvegicus with 15 samples.

Results

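The immediate early genes Fos, Fosb, Jun, Junb, Egr1, Ier2, Atf3, Nr4a1, Dusp1 and Zfp36 were followed in femurs of ovariectomised rats, by matching these 10 names to the gene names of a table of 30454 genes. A row was named for 9 of the 10, and 8 had values above 0. Junb (ENSRNOG00000067725) was listed at 0 in all 15 libraries, as was the kinase gene Mapk3, so no level can be read from it. No row carried the name Dusp1, and that gene was not analysed here. The 8 genes with values all had a mean FPKM (fragments scaled by gene length and library size) of at least 1 over the libraries, the minimum for testing.

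Polyadenylated RNA of femurs was measured in female Sprague-Dawley (SD) rats, 8 weeks old when housed, in 5 groups of 3 libraries. Sham rats lost only fat from the region of the ovaries, whereas the 4 other groups lost both ovaries, and all rats had penicillin and erythromycin ointment after surgery. After 6 weeks of recovery came 8 weeks of daily treatment. Sham and OVX, the untreated model, had saline. By gavage, walnut extract (Juglans regia) went to group J at 1.6 g/kg, that of Psoralea corylifolia to group P at 2.4 g/kg, and the combined extract to group PJ at 4.0 g/kg. The labels do not say that the 3 libraries of a group are 3 rats, so p-values measure only the spread between these libraries. How long bones waited before extraction is not stated in the labels.

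Immediate early genes are switched on within minutes of a stimulus, with no need for new protein, and their messages decay fast. Fos, Fosb, Jun and Junb code for subunits of the AP-1 transcription factor, which in bone acts in both osteoblasts and osteoclasts. Growth factors, calcium and mechanical load induce these genes, and so do injury and delay while a tissue is taken out. They are therefore often read as a check on handling.

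Promoters of 4 of these genes are printed because between them they hold the elements through which such stimuli are known to act. RefSeq promoters of build GRCr8 (250 bases before and 50 after the gene start) were found for 7 of the 10 genes. Capitals mark every match to the letters TGACGTCA (cyclic AMP response element, CRE), TGCGTCA (a CRE-like form), TGACTCA (AP-1), GCGGGGGCG (a site of the Egr family) or TATAAA, or to a CArG box, the element bound by serum response factor. Both strands were searched, and no matches overlapped. Egr1 lies at chr18:26736828-26737127 on the plus strand, Nr4a1 at chr7:134259888-134260187 on the plus strand, Ier2 at chr19:40399123-40399422 on the plus strand and Zfp36 at chr1:92799059-92799358 on the minus strand.
Egr1: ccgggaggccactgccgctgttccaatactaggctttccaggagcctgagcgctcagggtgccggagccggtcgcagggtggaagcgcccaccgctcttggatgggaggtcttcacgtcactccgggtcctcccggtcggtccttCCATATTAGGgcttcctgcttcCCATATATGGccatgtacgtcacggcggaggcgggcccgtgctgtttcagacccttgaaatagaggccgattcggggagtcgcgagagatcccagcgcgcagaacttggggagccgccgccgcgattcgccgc
Nr4a1: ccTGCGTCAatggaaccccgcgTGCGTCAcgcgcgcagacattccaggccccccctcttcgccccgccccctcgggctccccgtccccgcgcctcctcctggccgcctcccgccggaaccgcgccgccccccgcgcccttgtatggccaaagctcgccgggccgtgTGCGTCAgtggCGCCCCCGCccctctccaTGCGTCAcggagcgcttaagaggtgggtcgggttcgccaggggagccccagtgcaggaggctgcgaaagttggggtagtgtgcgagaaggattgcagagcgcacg
Ier2: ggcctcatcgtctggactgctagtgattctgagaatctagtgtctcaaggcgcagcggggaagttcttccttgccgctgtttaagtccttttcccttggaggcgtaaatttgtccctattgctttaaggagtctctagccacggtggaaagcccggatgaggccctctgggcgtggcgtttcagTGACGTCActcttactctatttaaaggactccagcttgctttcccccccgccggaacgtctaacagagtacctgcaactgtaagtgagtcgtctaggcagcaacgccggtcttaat
Zfp36: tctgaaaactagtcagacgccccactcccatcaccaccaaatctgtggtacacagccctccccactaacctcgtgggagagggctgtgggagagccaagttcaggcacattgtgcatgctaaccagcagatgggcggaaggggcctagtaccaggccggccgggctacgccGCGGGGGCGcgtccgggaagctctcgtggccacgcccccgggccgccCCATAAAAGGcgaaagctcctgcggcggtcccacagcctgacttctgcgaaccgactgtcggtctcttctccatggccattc
Egr1 held 2 CArG boxes, CCATATTAGG and CCATATATGG, which begin 105 and 83 bases before the gene start. At least 2 such boxes occurred in 0.0209% of all 33469 promoters of this length, and at least 1 in 1.64%. Nr4a1 held TGCGTCA 4 times, and the Egr letters on the other strand. That count of TGCGTCA was reached by 0.00299% of promoters, which is Nr4a1 itself and no other, while 1.9% held at least 1. Ier2 held 1 full CRE, found in 1.83% of promoters. Zfp36 held the Egr letters, found in 2.73%, and a CArG box 32 bases before the start. TATAAA, found in 14.2%, was in none of these 4. None of the 7 held TGACTCA, which 4.63% of promoters did. These matches describe letters in a window and say nothing of binding.

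Recovered library totals were 34.4 to 61.0 in units of 1000000 reads. The share of FPKM from mitochondrial genes was 11.2% to 35.9% and was highest in P 2. Cell markers differed between the groups: 7 erythroid markers summed to 356 to 2220 FPKM in Sham and 30320 to 40830 in OVX. Osteoblast markers (Bglap, Col1a1, Sp7, Ibsp, Runx2 and Alpl) were above 0 in every library of this labelled bone. Cartilage markers summed to 1640 to 3627 FPKM in Sham but to 1.04 to 1.30 in OVX, with Acan, Col9a1 and Ucma at 0 in some OVX libraries. In whole tissue, fewer cells of a type and less RNA per cell cannot be told apart.

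Immediate early genes were highest in Sham by group mean, with PJ second, in all 8. The AP-1 subunit gene Fos (ENSRNOG00000008015) had an FPKM of 25.5, 175 and 240.5 in Sham 1, 2 and 3, and values of all groups follow in that order. It had 13.7, 16 and 46.7 in OVX, 28.9, 28.9 and 17.9 in J, 15.8, 66.7 and 93.5 in P, and 55.1, 131 and 72.4 in PJ. Sham 2 and 3 stood above every other library, while Sham 1 lay within the OVX range. Fosb (ENSRNOG00000046667), a relative of Fos known for protein that accumulates with repeated stimulation, had 6.56, 51.8 and 119.7 FPKM in Sham and 0.158, 0.293 and 3.10 in OVX. J had 3.42, 2.62 and 5.36, P had 0.263, 21.9 and 4.58, and PJ had 7.24, 47.3 and 6.46. Sham and OVX did not overlap in Fosb, nor did PJ and OVX, and the P libraries spanned 83.2-fold.

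Jun (ENSRNOG00000026293), which pairs with Fos proteins in AP-1, had 27.7, 60.6 and 56.8 FPKM in Sham against 5.53, 5.05 and 20.0 in OVX. It had 12.3, 10.7 and 9.58 in J, 14.1, 26.8 and 17.1 in P, and 32.2, 27.1 and 12.2 in PJ. All Sham libraries were above all OVX, J and P libraries in Jun. Atf3 (ENSRNOG00000003745), a stress-induced factor of the same protein class, had 6.65, 29.7 and 57.7 FPKM in Sham and 0.740, 1.04 and 7.35 in OVX. Its values were 3.32, 2.7 and 2.42 in J, 1.67, 10.7 and 3.60 in P, and 8.64, 10.1 and 3.48 in PJ. OVX 3 was above Sham 1 in Atf3, so those groups overlap.

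Egr1 (ENSRNOG00000019422), the zinc finger factor gene with the CArG boxes shown above, had 36.6, 175 and 198 FPKM in Sham, 7.70, 29.9 and 105 in OVX, and 58.3, 33.1 and 37.4 in J. It had 27.7, 76.4 and 141 in P and 93.3, 81.8 and 146 in PJ. The spread of Egr1 was wide in OVX, where the third library was above Sham 1 and the others were below all Sham libraries. Nr4a1 (ENSRNOG00000007607), an orphan nuclear receptor gene, had 31.2, 131 and 125 FPKM in Sham, 4.11, 7.66 and 56.2 in OVX, and 30.3, 20.0 and 8.96 in J. It had 5.08, 28.3 and 31.9 in P and 57.8, 39.4 and 34.0 in PJ. Its OVX libraries fell around Sham 1 in the same way.

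Ier2 and Zfp36 had the smallest estimates of the 8 in OVX against Sham. Ier2 (ENSRNOG00000067274), a nuclear protein gene, ran from 12.4 to 30.0 FPKM in Sham, 9.78 to 17.5 in OVX, 13.5 to 16.7 in J, 8.73 to 16.1 in P and 15.3 to 23.4 in PJ. Zfp36 (ENSRNOG00000058388), whose product tristetraprolin binds AU-rich messages and hastens their decay, ran from 51.4 to 141 FPKM in Sham, 35.1 to 79.8 in OVX, 54.4 to 71.9 in J, 43.6 to 82.0 in P and 71.2 to 93.8 in PJ. OVX overlapped Sham in both, since Sham 1 lay within the OVX range. The values of the 8 genes rest on 24 recovered reads (Fosb in OVX 1) to 23054 (Egr1 in PJ 3).

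**Figure D1:**
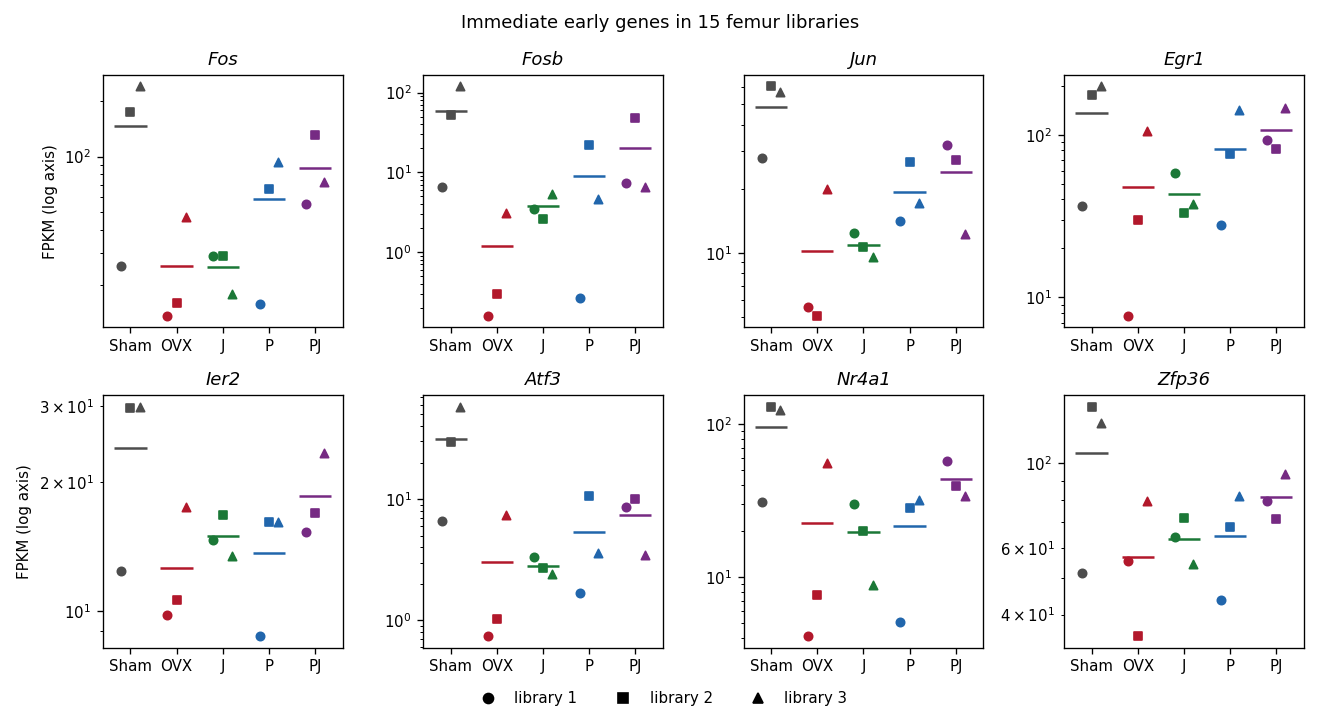
FPKM (log axis) of the 8 measured immediate early genes in 5 groups, with 1 point per library (shape gives the library number) and a line at the group mean. Sham 2 and Sham 3 are the highest 2 of 15 libraries in all 8 genes, and Sham 1 falls below OVX 3 in 6 of them.

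By group mean the order ran Sham, PJ, P, J, OVX in Fosb, Jun and Zfp36. OVX and J changed places in Fos, Egr1 and Atf3, with means of 25.5 ± 18.4 and 25.2 ± 6.36 FPKM for Fos (SD, n = 3 each). J stood above P in Ier2. Nr4a1 put OVX above P and J, at 22.7 ± 29.1, 21.8 ± 14.6 and 19.8 ± 10.7 FPKM (SD, n = 3 each). These orders are of mean FPKM. On the log2(FPKM + 1) scale of the tests, all 8 genes had a higher mean in J and in P than in OVX. In none of the 8 genes did a pair of neighbours in its order pass the test. The step from Sham to PJ in Atf3 ran from 31.4 ± 25.6 to 7.40 ± 3.47 FPKM (SD, n = 3 each).

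An F test over the 5 groups in limma, a linear model on log2(FPKM + 1) over 14416 genes, passed for Fosb (adjusted p = 0.0432), Jun (0.00916) and Atf3 (0.0337), that is for 3 of 8, where 50.0% of all tested genes passed. The other 5 ran from 0.108 to 0.294 (Zfp36). Without Sham 1 the F test passed for 6 genes. It passed for 1 gene when Sham 2, Sham 3, OVX 1, OVX 2 or any library of J was left out.

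In OVX against Sham 5 of the 8 genes fell, where 28.9% of all tested genes fell. Fosb fell by 4.31 ± 1.13 (SE) on the log2(FPKM + 1) scale (limma adjusted p = 0.00584). Atf3 fell by 2.95 ± 0.77 (adjusted p = 0.00544) and Jun by 2.31 ± 0.48 (adjusted p = 0.00122). Nr4a1 fell by 2.57 ± 0.89 (adjusted p = 0.026) and Fos by 2.19 ± 0.81 (adjusted p = 0.0355). Egr1 (-1.84 ± 0.85, adjusted p = 0.0835), Ier2 (-0.82 ± 0.33, adjusted p = 0.0533) and Zfp36 (-0.85 ± 0.37, adjusted p = 0.071) did not pass. The median of the 8 was -2.25, and that of all tested genes -0.04.

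Sham and OVX did not overlap in 2 of the 8 genes, Fosb and Jun, both lower in OVX, while 34.5% of all tested genes were lower without overlap. Fosb, Jun and Atf3 passed under all 25 alternatives tried. Neither Fos nor Nr4a1 passed without Sham 2, without Sham 3, without OVX 1 or without OVX 2, which left 3 calls each time, at estimates of -1.58 to -1.98 (adjusted p = 0.102 to 0.142) and -1.86 to -2.26 (adjusted p = 0.0821 to 0.12). Both were also lost with only the groups compared, and Fos without a filter on low values (-2.19 ± 0.83, adjusted p = 0.058). All 8 passed without Sham 1, and all 8 without OVX 3. Marker sums differed in the same comparison, with 8 neutrophil markers at 244 to 591 FPKM in Sham and 19120 to 21930 in OVX, and 6 fibroblast matrix markers at 4669 to 10050 and 83.6 to 153. Their part in the difference was not tested.

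For walnut extract, none of the 8 genes in J against OVX passed in limma or in voom on recovered reads. In limma 6.06% of all tested genes passed. None of the 8 had an unadjusted p under 0.05, where 3604 (limma) and 3577 (voom) of all 14416 tested genes did. Estimates ran from 0.17 ± 0.81 (SE) for Fos, with a 95% interval of -1.58 to 1.92, to 1.35 ± 1.13 for Fosb, with -1.10 to 3.80. Intervals this wide leave changes of several fold undetected. Against Sham, J was lower in Jun (-1.98 ± 0.48, adjusted p = 0.005), Atf3 (-2.66 ± 0.77, adjusted p = 0.0133) and Fosb (-2.96 ± 1.13, adjusted p = 0.0491), 3 of 8 against 20.9% of all tested genes. In these 3 and Nr4a1 all J libraries were below all Sham libraries, as were 26.3% of all tested genes. Without Sham 1, 7 passed, and without Sham 3 only Jun did. Fosb was also lost when any of OVX 1, OVX 2, OVX 3, J 1, J 2, J 3, P 3, PJ 1, PJ 3 or Sham 2 was left out, with an adjusted p of 0.0524 to 0.13. It passed in only 9 of the 25 alternatives. Among those that lost it were a pseudocount of 0.1 (limma adjusted p = 0.0946), no filter on low values (0.0799) and TPM (0.0511).

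In P against OVX none of the 8 genes passed in limma after adjustment, where 39.2% of all tested genes did. Of the 8, 1 (Jun) had an unadjusted p under 0.05, beside 6863 of all 14416 tested genes. Voom gave the same counts for the 8, beside 6755 of all tested genes at an unadjusted p under 0.05. Jun was at 1.07 ± 0.48 (SE, adjusted p = 0.0963) and passed without OVX 3 (1.65 ± 0.41, adjusted p = 0.00924). Fosb, at 1.57 ± 1.13, had an interval of -0.88 to 4.02. Against Sham none of the 8 passed after adjustment in P, in limma or voom, where 7.80% of all tested genes passed in limma. In each, 4 of the 8 had an unadjusted p under 0.05, as did 3460 (limma) and 3398 (voom) of all 14416 tested genes. Atf3 passed without Sham 1, and Atf3 and Fosb without P 2, the library with the highest sum of 5 skeletal muscle markers (882 FPKM).

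For the combined extract, Fosb and Jun rose against OVX. Fosb rose by 2.97 ± 1.13 (SE, limma adjusted p = 0.0481) and Jun by 1.30 ± 0.48 (adjusted p = 0.0426), 2 of 8 where 29.8% of all tested genes rose. That count is near the share of all tested genes, and each call passed in only 12 of the 25 alternatives. Fos, at 1.84 ± 0.81 (adjusted p = 0.0817), Egr1, at 1.78 ± 0.85 (0.107), and Nr4a1, at 1.68 ± 0.89 (0.142), did not pass. Nor did Atf3 at 1.34 ± 0.77, Zfp36 at 0.58 ± 0.37 and Ier2 at 0.54 ± 0.33. PJ and OVX did not overlap in Fos and Fosb, both higher in PJ, while 39.3% of all tested genes were higher without overlap. Both calls were lost when 1 of OVX 1, OVX 2, J 1, J 2, J 3, P 3, PJ 1 or PJ 2 was left out, and that of Fosb without Sham 2, whereas 6 genes passed without OVX 3. Both were also lost without a filter on low values, without mitochondrial and globin genes, and with median-ratio scaling. That scaling shifted the median of all tested genes by -0.25. Voom called 1 gene, Jun. In limma Jun did not pass with only the groups compared (adjusted p = 0.104) or with a replicate block (adjusted p = 0.0593). Marker sums differed here too: erythroid markers were at 1274 to 5750 FPKM in PJ, neutrophil markers at 1700 to 8320 and fibroblast matrix markers at 321 to 1720, against the OVX sums above. Their part in the rise was not tested. The same OVX libraries enter this comparison and that with Sham.

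In PJ against Sham none of the 8 passed in limma or voom, where 11.2% of all tested genes passed in limma. None of the 8 had an unadjusted p under 0.05, beside 4509 (limma) and 4540 (voom) of all 14416 tested genes. Estimates ran from -0.07 ± 0.85 (SE) for Egr1 to -1.62 ± 0.77 for Atf3. Between treatments, none of the 8 passed in P against J, PJ against J or PJ against P, in limma or voom. Of all tested genes 7.42%, 14.3% and 0% passed in limma. None of the 8 had an unadjusted p under 0.05. Of all tested genes 4090, 4602 and 296 did in limma, and 3976, 4648 and 307 in voom. In PJ against J, Fos was at 1.67 ± 0.81 (adjusted p = 0.173), and 5 genes (Fos, Fosb, Egr1, Atf3 and Nr4a1) were higher in all PJ than in all J libraries, as were 22.5% of all tested genes. For PJ minus J minus P plus OVX, which is 0 where the extracts add up, estimates ran from -0.10 ± 0.68 (Jun) to 0.82 ± 1.25 (Nr4a1). None of the 8 passed, adjusted or not, and 0% of all tested genes did after adjustment, in limma or voom (1332 and 1449 at an unadjusted p under 0.05).

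**Figure D2:**
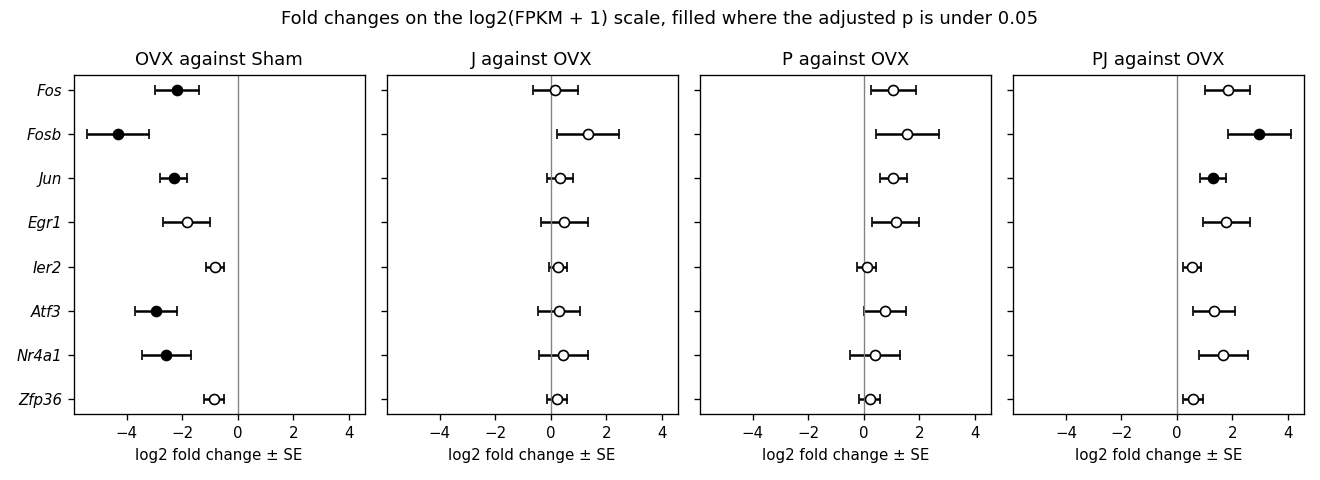
Log2 fold change ± SE of each gene in OVX against Sham and in J, P and PJ against OVX, from the fit over 15 libraries, with filled points where the adjusted p is under 0.05. All 8 points lie below 0 in OVX against Sham and above 0 in the other panels, which share the OVX libraries, but several of the points that did not pass in J and P against OVX turn below 0 under alternatives, Ier2 in P with median-ratio scaling (-0.08) among them.

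The signs in J and P against OVX were not stable. Without OVX 1 the J estimates were -0.15 for Fos, -0.43 for Egr1, -0.12 for Atf3 and -0.25 for Nr4a1, and without OVX 2 those of Fos, Atf3 and Zfp36 were also below 0. In P against OVX, Ier2 was at -0.05 with array weights and -0.05 without OVX 1, and also below 0 without P 2 or P 3. Nr4a1 was at -0.30 without OVX 1 and below 0 without P 3, and Zfp36 was below 0 without OVX 2. In PJ against OVX all 8 estimates stayed above 0 in the 25 alternatives.

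Within groups the immediate early genes varied together. The SD within groups, on the log2(FPKM + 1) scale with 10 degrees of freedom, was 1.55 for Fosb, 1.22 for Nr4a1, 1.16 for Egr1, 1.11 for Fos, 1.05 for Atf3, 0.65 for Jun, 0.50 for Zfp36 and 0.45 for Ier2. The median of the 8 was 1.08, and that of all tested genes 0.27. Fosb had a larger SD than 98.7% of tested genes and Ier2 than 79%. The groups accounted for a median of 48.2% of the variance of the 8 genes, against 62.4% over all tested genes.

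**Figure D3:**
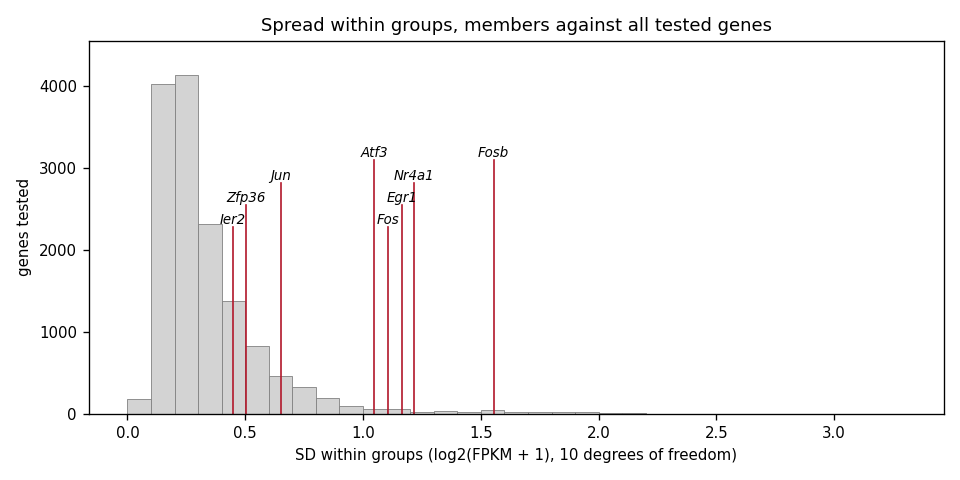
Histogram of the SD within groups (log2(FPKM + 1)) over the 14416 tested genes, with red lines at the 8 immediate early genes. The median of all tested genes is 0.27, and 5 of the 8 lines stand above 1.

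In most genes the same libraries set this spread. All 8 genes were lowest of their group in Sham 1 and in P 1, and all 8 were highest of their group in OVX 3. The mean log2(FPKM + 1) of the 8 genes was 4.39 in Sham 1 against 6.33 and 6.64 in Sham 2 and 3. It was 4.77 in OVX 3 against 2.79 and 3.11 in OVX 1 and 2, and 3.24 in P 1 against 5.04 and 4.76 in P 2 and 3. This mean was more even in J (3.79 to 4.22) and PJ (4.81 to 5.37). In PJ that did not hold for every gene, as Fosb spanned 7.32-fold there. Over the 28 pairs of genes, Pearson correlations of deviations from group means across the 15 libraries were 0.542 to 0.91 (median 0.788). The points share libraries and scaling, so this is a description.

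**Figure D4:**
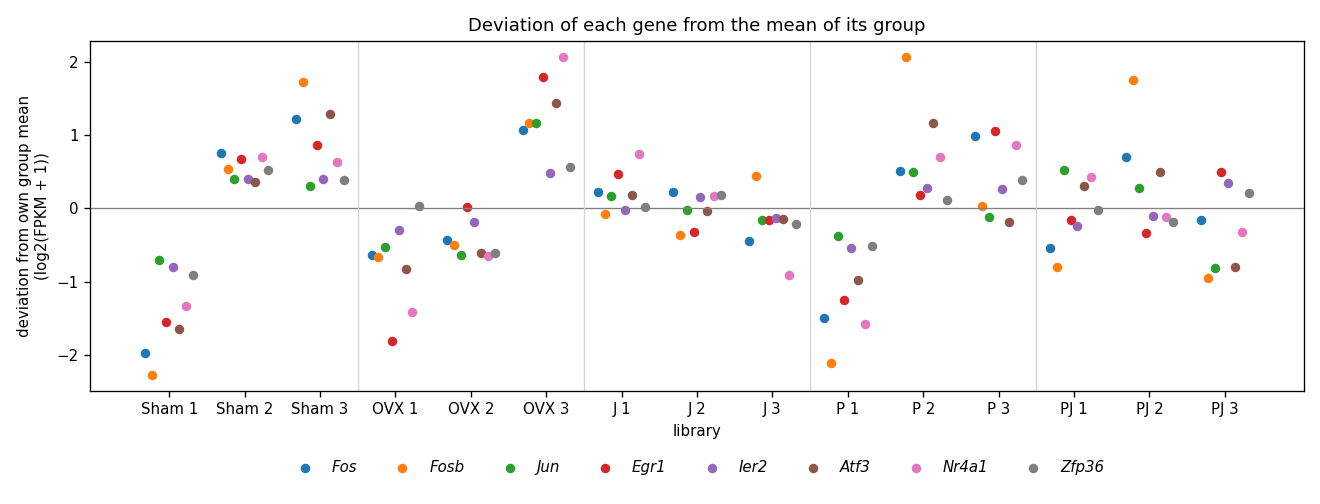
Deviation of each gene from the mean of its own group (log2(FPKM + 1)) in each library, 1 colour per gene. All 8 points lie below 0 in Sham 1 and P 1 and above 0 in Sham 2, Sham 3, OVX 3 and P 2, whereas PJ libraries straddle 0.

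The libraries that stood apart in these genes also differed in marker levels. The mean log2(FPKM + 1) of 5 skeletal muscle markers was 3.25 in OVX 3 against 0.59 and 0.70 in OVX 1 and 2, and that of 5 adipocyte markers 5.39 against 2.46 and 3.98. In Sham 1, where the 8 genes were low, muscle markers were at 4.92 against 4.33 and 1.80 in Sham 2 and 3, and adipocyte markers at 4.06 against 5.45 and 5.71. Osteoclast markers were at 6.25 in Sham 3 against 2.30 and 2.22 in Sham 1 and 2. P 1, where the 8 genes were also low, had 2.73 for muscle, between 0.92 in P 3 and 5.78 in P 2. Adipocyte markers went the other way there, at 7.33 in P 1 against 4.23 and 6.81 in P 2 and 3. The part of these differences in the spread was not tested.

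Other genes of the early response were read from lists of further transcription factors, of effectors and feedback genes, and of AP-1 relatives. The part of the marker differences given above in changes of these lists, and of the heat shock and upstream lists below, was not tested. Of 22 tested further transcription factors, 15 fell in OVX against Sham and 0 rose (median -1.30), where 28.9% of all tested genes fell and 25.3% rose. In the comparisons with OVX, 3 (Hes1, Klf2 and Ier5l) rose in J, 10 in P and 14 in PJ, and 0 fell in any of these. In J 471 of all 14416 tested genes rose and 402 fell. Of all tested genes 24.2% rose and 15.0% fell in P, and 29.8% and 14.6% in PJ. The smallest F-test p of the list were those of Ier5l (-2.32 ± 0.25, SE, in OVX against Sham), Hes1, a Notch target (-2.69 ± 0.34), Klf4 (-3.46 ± 0.44) and Klf6 (-1.52 ± 0.23), and these 4 rose in PJ by 1.68 ± 0.25, 2.61 ± 0.34, 1.68 ± 0.44 and 0.82 ± 0.23. Hes1 had 51.2 ± 20.9 FPKM in Sham, 7.12 ± 3.12 in OVX and 46.5 ± 11.5 in PJ (SD, n = 3 each). Naming by F-test p favours genes that are even within groups. In OVX Ier5l ran from 0.595 to 0.713 FPKM, Klf4 from 6.66 to 9.13, Klf6 from 12.0 to 20.3 and Hes1 from 3.56 to 9.38.

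Of 32 tested effectors and feedback genes, 15 fell and 5 rose in OVX against Sham (median -1.08), beside 28.9% and 25.3% of all tested genes. Ccn2, a secreted matrix regulator, fell by 4.73 ± 0.51 (SE), from 749 ± 278 to 28.0 ± 14.8 FPKM (SD, n = 3 each), and Plk2, a stress-induced kinase, fell by 2.50 ± 0.27. In the other direction Dusp2, a phosphatase that ends MAP kinase signalling, rose by 2.90 ± 0.29 and Gadd45a, a growth arrest gene, by 2.25 ± 0.25; Pim1, Dusp5 and Dusp10 also rose. Against OVX, 0 of the 32 passed in J, beside 6.06% of all tested genes. In P 13 rose and in PJ 18, beside 24.2% and 29.8% of all tested genes. The 3 that fell in each were Dusp2, Gadd45a and Pim1, beside 15.0% and 14.6% of all tested genes. In PJ Plk2 rose by 2.05 ± 0.27 and Gadd45a fell by 1.34 ± 0.25. Of 11 tested AP-1 relatives 3 (Batf, Mafg and Atf1) rose and 3 (Maff, Fosl2 and Atf7) fell in OVX against Sham, with Maff at -2.39 ± 0.36 and Batf, a factor of lymphocytes, at 1.11 ± 0.31. These AP-1 counts are near the shares of all tested genes. None of these 11 passed in J, beside 6.06% of all tested genes. In P Maff and Atf7 rose and Mafg fell, beside 24.2% and 15.0% of all tested genes. In PJ Maff, Atf7 and Jdp2 rose, beside 29.8%. Klf2, Pim1, Dusp5, Dusp10, Mafg, Fosl2 and Jdp2 were named after their values were seen, as were Hsp90aa1, Hspd1, Hsph1, Dnajb1 and Dnajb4 below.

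Heat shock genes also respond to handling and were read from a further list. Of 13 tested, 5 (Hsp90aa1, Hspd1, Hspe1, Hsph1 and Dnajb1) rose and 4 (Hspb1, Bag3, Hspa1b and Dnajb4) fell in OVX against Sham (median 0.02), where 25.3% of all tested genes rose and 28.9% fell. The small chaperone Hspb1 fell by 4.01 ± 0.47 (SE), the co-chaperone Bag3 by 2.21 ± 0.23 and the inducible Hspa1b by 1.77 ± 0.20, while the mitochondrial Hspe1 rose by 0.97 ± 0.17. Hspa1b had 3.46 ± 0.472 FPKM in Sham and 0.303 ± 0.0518 in OVX (SD, n = 3 each), and its near-identical copy Hspa1a was under the filter, so how reads were split between them is uncertain. None passed in J against OVX, beside 6.06% of all tested genes. Hspb1, Bag3 and Hspa1b rose in P and in PJ, where Hspb1 was at 2.43 ± 0.47 and 2.20 ± 0.47. Hsph1 and Hspd1 fell in both, and Hspe1 fell in PJ. Of all tested genes 24.2% rose and 15.0% fell in P, and 29.8% and 14.6% in PJ.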

How the data were processed

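TRIzol RNA went into TruSeq libraries, per the labels' protocols; no source used here gives the strand setting. The submitters' processing notes name fastp 0.23.4, STAR 2.7.11a, featureCounts 2.0.6 and build mRatBN7.2. Groups came from the titles. The deposited column whose name ends in count holds FPKM, since its values are not whole, and a column named FPKM was empty in all 15 files. Reads were recovered from steps in the FPKM: all 24207 genes above 0 had a length giving whole reads within 0.05, a fit by construction, and recovered reads made 99.978% to 99.987% of inferred totals. Even numbers made 59.9% of counts of 1 to 20, so read ends may have been counted.

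Values were fitted as log2(FPKM + 1), which understates changes of low genes, where the mean FPKM reached 1 (14416 genes). The model was limma 3.58.1 in R 4.3.3, with group as the only term over 15 libraries and a mean trend. Benjamini-Hochberg adjustment of two-sided tests ran over all tested genes at 0.05. The fit was tested on simulated data. Alternatives were a pseudocount of 0.1, other filters and scalings, array weights, only the groups compared, a replicate block, voom, and omission of each library. Members and lists were chosen with earlier results of these data known. From each of 5 lists (107 genes) the 4 tested genes with the smallest F-test p were named. So were the 5 genes most like the scaled mean of the members by each of 2 correlations. Promoter motifs were chosen after the files were seen.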

Additional observations from a re-analysis of the deposited data

How the results depend on the processing

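No estimate that passed the threshold, in the main or an alternative analysis, changed sign between them. For OVX against Sham, 8 genes passed with array weights and 3 with only the groups compared. For PJ against OVX the count of 2 became 0 without a filter on low values, 0 with median-ratio scaling, 0 without mitochondrial and globin genes, 6 with array weights and 1 in voom. The F test count of 3 became 1 without a filter, 7 with array weights and 1 in voom. Array weights also gave 6 for J against Sham, 6 for P against Sham, 2 for PJ against Sham and 1 for PJ against J, where only the groups compared gave 1. Leaving out each library gave 3 to 8 for OVX against Sham, 0 to 6 for PJ against OVX, 0 to 1 for P against OVX, 1 to 7 for J against Sham, 0 to 2 for P against Sham and 1 to 6 for the F test. The cause of these shifts was not tested.

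Counts over all tested genes moved by over 1.5 times in J against OVX (873, against 540 without a filter, 428 as TPM, 1370 with median-ratio scaling, 3934 with array weights and 1357 with only the groups compared). With array weights and with only the groups compared they moved in P against Sham (1125, against 6090 and 503), PJ against Sham (1615, against 6959 and 504), PJ against J (2056, against 7405 and 615) and P against J (1069, against 4197 and 0). P against J also gave 515 at a pseudocount of 0.1 and 0 without a filter or as TPM. Array weights gave 4 in PJ against P and 920 in additivity, both 0 otherwise but for 2 at a pseudocount of 0.1, 2 at a minimum of 5 and 1 as TPM in additivity, and 11811 against 7213 in the F test. Omitting 1 library gave 22 to 1561 in J against OVX, 465 to 2504 in P against Sham, 350 to 2686 in PJ against Sham, 397 to 3821 in PJ against J, 0 to 2285 in P against J and 0 to 6 in additivity.

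Groups share replicate numbers. Deviations of same-numbered libraries from their group means correlated at -0.409 to 0.488 across genes, and those of differently numbered libraries at -0.549 to 0.601. Of the 15 libraries 7 were closest to one of their own number. These values cannot tell whether same-numbered libraries shared more than a number. With a replicate block 7 genes passed in OVX against Sham, 3 in PJ against OVX, 4 in J against Sham and 4 in the F test, and 0 in the other comparisons.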

Other observations

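The kinases and resident factors upstream of the early response were read from a list of 21 tested genes. In OVX against Sham 6 rose and 6 fell, near the 25.3% and 28.9% of all tested genes, with a median log2 fold change of -0.03. Map2k3, a kinase that activates p38, rose by 1.41 ± 0.13 (SE), from 23.0 ± 5.25 FPKM in Sham to 61.9 ± 1.73 in OVX (SD, n = 3 each). It fell by 0.58 ± 0.13 in J, by 1.01 ± 0.13 in P and by 1.08 ± 0.13 in PJ against OVX. The known partners of serum response factor Elk1 (-0.77 ± 0.13), Elk3 (-1.55 ± 0.26) and Mrtfb (-1.69 ± 0.28) fell in OVX against Sham, and rose in PJ against OVX by 0.79 ± 0.13, 1.33 ± 0.26 and 0.97 ± 0.28. Mrtfa, another such partner, went the other way and rose in OVX against Sham by 0.62 ± 0.18. The serum response factor gene Srf and its partner gene Elk4 were tested and passed in neither comparison. Mrtfa, Srf and Elk4 were named after their values were seen. In J against OVX 1 of the 21, Map2k3, passed, beside 6.06% of all tested genes. In P 4 rose and 3 fell, beside 24.2% and 15.0% of all tested genes. In PJ 6 rose and 2 fell, beside 29.8% and 14.6%. The count that rose in PJ is near that share. Mapk3 and Crtc2 were listed at 0.

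The 8 genes were each scaled to their own SD and then averaged. Among 13501 genes with a symbol, those most like this scaled mean over the 15 libraries by Pearson correlation were Plekhg6 (0.901), Nr4a2 (0.895), Phlda1 (0.892), Nfkbiz (0.879) and Nme2 (0.865). By deviations from group means, scaled likewise, they were Cox5b (0.884), Plekhg6 (0.836), Zfp503 (0.834), LOC120096867 (0.83) and Nectin2 (0.829). Nr4a2, a relative of Nr4a1, had 4.57, 13.2 and 8.65 FPKM in Sham, 0.914, 0.922 and 4.03 in OVX, and 8.47, 6.68 and 3.78 in PJ. Cox5b, a subunit of cytochrome oxidase, had 22.6, 29.4 and 31.2 in Sham and 60.3, 55.4 and 63.6 in OVX, so it resembled the 8 within groups and was higher in OVX. These genes were picked as the highest of many and are a description.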
